A study of Mus musculus with 2 samples.

Results

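The pachytene spermatocytes described here are cells of meiotic prophase in the testis of 8-month-old mice that carried few transcripts of Aurka and Ccna1. Single-cell RNA sequencing on the 10x Genomics system gave 1 library from the Igf2bp1 conditional knockout (KO) and 1 library from wild type (WT). Both came from testis tissue digested with enzymes, and the design text names 2 mice without saying how they fall into the libraries, so each library counts as 1 sample. The labels name neither the Cre driver nor the deleted part of Igf2bp1.

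The cells were selected on measured values, so the levels of the selecting genes are a description and support nothing. A barcode was taken if it held at least 5000 UMIs (unique transcript tags), less than 2% of UMIs from Prm1, Prm2, Tnp1 and Tnp2, and fewer than 10 UMIs of the Leydig cell genes Insl3, Cyp17a1 and Cyp11a1. It also needed at least 4 UMIs summed over Piwil1, Pou5f2, Ccna1, Aurka, Mybl1 and Ovol1, more of these than of 6 spermatid genes, and at most 3 UMIs of Aurka and Ccna1 together. This rule found 31 barcodes among 17968 in the KO library and 57 among 17362 in the WT library, 88 of 35330 in all. They hold 508270 UMIs in KO and 1117290 in WT, with medians of 11316 and 15394 UMIs per barcode. The 2 libraries share 106 barcode sequences, of which 0 are among these cells.

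At the pachytene stage the paired chromosomes are held together along their length by the synaptonemal complex, and crossovers are completed. The X and Y chromosomes, which have little to pair with, are packed into the sex body and silenced. The transcription factor MYBL1 (A-MYB) switches on a broad germ cell programme that includes the genes of the piRNA pathway, which guards germ cells against transposons. AURKA, a spindle kinase, and cyclin A1, encoded by Ccna1, are made toward the end of prophase, before the meiotic divisions. Igf2bp1 encodes an mRNA-binding protein known for keeping bound mRNAs stable, and the libraries ask what its loss does in the testis.

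The cells were set against 3 neighbouring groups taken from the same libraries, with the same UMI, protamine and Leydig limits. Near-division spermatocytes met the same rule but held 4 or more UMIs of Aurka and Ccna1 (179 barcodes in KO, 682 in WT). Early spermatocytes held at least 3 UMIs of Prdm9, Meiob, Dmc1, Stra8 and Rad51ap2 and fewer than 4 of the pachytene sum (21 in KO, 31 in WT). Round spermatids held at least 4 UMIs of the 6 spermatid genes and no fewer of them than of the pachytene sum (541 in KO, 1457 in WT). The early and round rules do not exclude each other, and a barcode can be in both groups. The highest Stra8 of a WT barcode was 2722 CPM in both, and the highest Ncl of a KO barcode 2754 CPM in both. Ratios against the round group are therefore not against spermatids alone. The early rule set no limit on genes of spermatogonia or macrophages. In the early group 11 spermatogonial markers together held 1681 CPM in KO and 1974 CPM in WT. The 9 macrophage markers held 1047 CPM in KO and 11.03 CPM in WT. More than 10% of UMIs were mitochondrial in 9 of its 21 KO barcodes and 2 of its 31 WT barcodes. Which cells gave these UMIs was not tested, so ratios against the early group may not be against early spermatocytes alone. Levels are in CPM, the UMIs of a gene per 1000000 UMIs of the group. With 1 library per genotype there is no test and no p-value. Genes are called higher or lower where the ratio reaches 1.5-fold and its exact 95% interval, which covers counting error only, leaves out 1; against a neighbouring group both libraries must pass. A gene is measured when both groups together hold at least 50 UMIs.

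Promoters of 4 genes that stood high in these cells are shown first, because MYBL1, 1 of the selecting genes, acts on promoters through a short motif. Each sequence runs 5′ to 3′ on the strand of the gene, from 250 bases before to 50 bases after its start, from RefSeq on build GRCm38.p6. Capitals mark the MYB core, AACTG on the printed strand or CAGTT where it lies on the other. Piwil1 (chr5:128735996-128736295, plus strand) encodes the PIWI protein that binds pachytene piRNAs. Tdrd1 (chr19:56825959-56826258, plus strand) encodes a Tudor domain partner of PIWI proteins. Elfn2 (chr15:78718722-78719021, minus strand) encodes a membrane protein with leucine-rich repeats. Cks2 (chr13:51644982-51645281, plus strand) encodes a subunit of cyclin-dependent kinases.
Piwil1: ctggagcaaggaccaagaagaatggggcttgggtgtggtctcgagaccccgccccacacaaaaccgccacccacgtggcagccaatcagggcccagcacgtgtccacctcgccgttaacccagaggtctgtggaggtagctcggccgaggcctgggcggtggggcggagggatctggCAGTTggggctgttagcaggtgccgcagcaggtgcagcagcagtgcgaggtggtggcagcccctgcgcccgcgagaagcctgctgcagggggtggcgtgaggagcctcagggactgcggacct
Tdrd1: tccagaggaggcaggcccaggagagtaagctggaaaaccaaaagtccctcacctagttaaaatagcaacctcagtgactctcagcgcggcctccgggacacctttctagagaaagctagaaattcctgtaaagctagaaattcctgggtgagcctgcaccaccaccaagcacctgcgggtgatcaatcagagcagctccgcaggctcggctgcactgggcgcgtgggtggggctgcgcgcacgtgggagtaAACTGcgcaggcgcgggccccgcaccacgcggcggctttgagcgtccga
Elfn2: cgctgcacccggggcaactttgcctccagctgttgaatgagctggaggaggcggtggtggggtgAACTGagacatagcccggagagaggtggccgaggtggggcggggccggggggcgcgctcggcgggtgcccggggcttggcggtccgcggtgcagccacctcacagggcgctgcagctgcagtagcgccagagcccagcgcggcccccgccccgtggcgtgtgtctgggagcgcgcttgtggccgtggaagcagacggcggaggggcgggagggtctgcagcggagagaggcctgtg
Cks2: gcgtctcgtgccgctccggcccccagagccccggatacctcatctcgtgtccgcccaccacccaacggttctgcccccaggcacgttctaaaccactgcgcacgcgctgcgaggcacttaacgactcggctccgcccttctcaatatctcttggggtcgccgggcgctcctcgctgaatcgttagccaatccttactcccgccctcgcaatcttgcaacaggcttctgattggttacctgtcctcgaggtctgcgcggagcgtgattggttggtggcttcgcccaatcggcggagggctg
The core is present once in Piwil1, Tdrd1 and Elfn2 and not in the window of Cks2. Of the 90 genes that were higher in these cells than in all 3 neighbouring groups and had at least 50 CPM, 65 had a promoter in the RefSeq table, and 31 of them (47.7%) held the core. The same share was 39.3% of 2494 promoters of genes with at least 50 CPM in both libraries and 44.8% of all 27025 promoters. For the RFX motif GTTGCC on either strand the shares were 18.5%, 15.9% and 12.7% in that order, and for the motif TGACGTCA they were 1.54%, 4.13% and 1.88%. These motifs were chosen after the gene lists were known, and a match is a description, not a binding site.

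Igf2bp1 could not be compared at this stage. It had 0 UMIs in KO cells, where a count of 3 would be 5.90 CPM, and 1 UMI (0.895 CPM) in WT cells. Early spermatocytes held more of it, with 7 UMIs (35.2 CPM) in KO and 21 UMIs (57.9 CPM) in WT. That difference had a log2 ratio of −0.72 (95% interval −2.19 to 0.57) and was not called. Free RNA, read from the 10% of barcodes with the fewest UMIs, held 2.98 CPM in KO and 3.51 CPM in WT. Its relative Igf2bp3 had 72.8 CPM in KO cells and 60.0 CPM in WT cells, a log2 ratio of 0.28 (−0.34 to 0.88), and Igf2bp2 had 0 CPM in KO and 0.895 CPM in WT.

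Of the 4 markers of the label, 3 were part of the rule and cannot check it. The other, Hspa2, a heat shock protein of spermatocytes, stood at 1574 CPM in KO cells and 1595 CPM in WT cells. Per barcode it ranged between 163 and 2742 CPM in KO, with a median of 1472, and between 128 and 3412 CPM in WT, with a median of 1560. The ranges of the libraries overlap widely. In early spermatocytes Hspa2 had 247 CPM in KO and 199 CPM in WT, so it was higher in the pachytene cells of both libraries (log2 2.67 and 3.01). It stood as high in near-division spermatocytes, at 1564 and 1505 CPM, and at 1164 and 1116 CPM in round spermatids, so it does not part the cells from these groups. Piwil1, which the rule used, stood at 1245 CPM in KO and 1139 CPM in WT. Mybl1 had 66.9 CPM in KO and 64.4 CPM in WT, and Pou5f2, a POU domain factor of spermatocytes, 63.0 and 51.9 CPM. Near division Piwil1 was lower, at 439 CPM in KO and 385 CPM in WT. Mybl1 was level there (60.2 and 66.5 CPM) and Pou5f2 higher (94.7 and 73.5 CPM), so these 2 do not mark the cells against that group. Aurka and Ccna1 were low by the rule, at 82.6 and 31.5 CPM in KO and 75.2 and 26.9 CPM in WT.

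**Figure D1:**
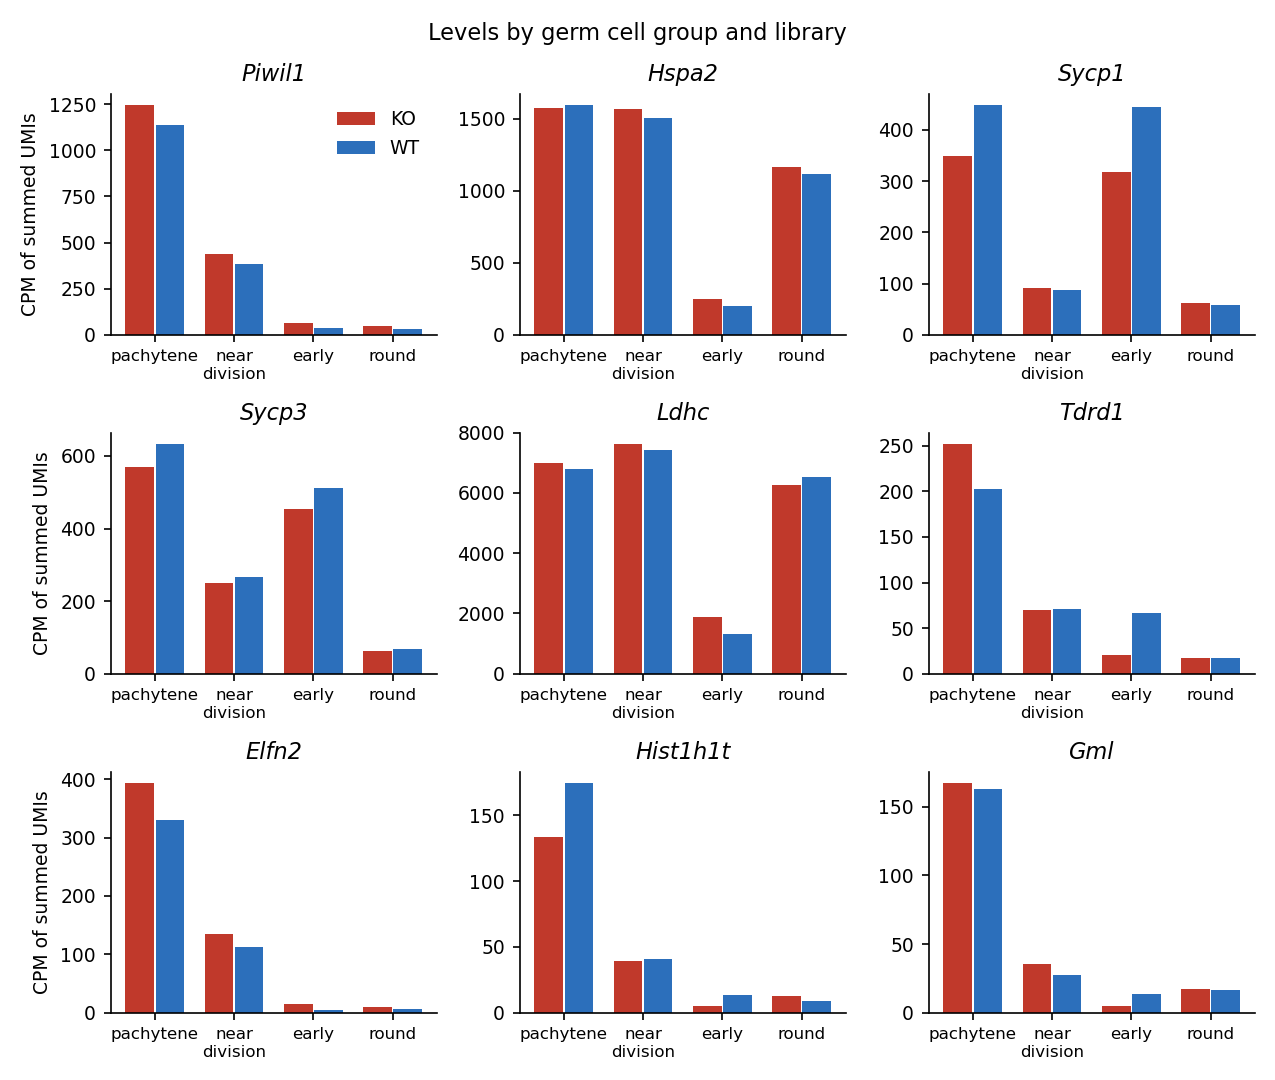
Levels of 9 genes in pachytene spermatocytes with low Aurka and Ccna1, near-division spermatocytes, early spermatocytes and round spermatids. The bars give CPM of UMIs summed per group and library, with the KO library in red left of the WT library in blue. All genes but Ldhc are tallest in the pachytene cells of both libraries. Hspa2 is nearly as tall in near-division spermatocytes, and Sycp1 in early spermatocytes.

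The levels at the limits of the rule are a description, since Piwil1 helped to choose the cells. The 11 KO cells with 3 UMIs of Aurka and Ccna1, just inside, had 1154 CPM of Piwil1 and 268 CPM of Sycp1, and the 11 KO barcodes with 4, just outside, had 1213 and 302 CPM. In WT, 22 cells inside had 1022 CPM of Piwil1 and 428 CPM of Sycp1, and 10 barcodes outside had 1243 and 269 CPM. The barcodes outside were deeper, with medians of 28066 UMIs in KO and 38340 in WT, against 11236 and 25404 inside. The 3 KO and 3 WT cells at the lowest pachytene sum of 4 had 355 and 102 CPM of Piwil1. At the protamine limit, 1 KO and 4 WT cells with 1.5 to 2% had 488 and 739 CPM of Piwil1, and 1 KO and 2 WT barcodes with 2 to 3% had 198 and 1307 CPM. At the UMI limit, 4 KO and 4 WT cells under 6000 UMIs had 552 and 789 CPM of Piwil1, and 8 KO and 7 WT barcodes with 4000 up to 5000 UMIs had 786 and 729 CPM. The limit of 3 UMIs is a raw count, so a shallower barcode passes it more easily. Of all spermatocytes by the rule, these cells were 31 of 210 (14.8%, exact binomial 95% interval 10.3 to 20.3) in KO and 57 of 739 (7.71%, 5.89 to 9.88) in WT. These intervals cover the counting of barcodes only, not differences between mice or libraries, so they do not compare the genotypes. With every barcode thinned to 5000 UMIs before the rule was applied, the shares were 51.1% in KO and 39.0% in WT.

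Most cells formed 1 group, and 2 kinds of barcode stood apart from it. The first kind held 1% or more of UMIs from X-linked genes. These were 2 KO barcodes (1.56% and 1.74%) and 3 WT barcodes (1.07% to 1.68%), while all others held at most 0.587% in KO and 0.536% in WT. Their Ldhc, the lactate dehydrogenase of germ cells, was low, at 1999 CPM in KO and 1479 CPM in WT, against 7112 and 6963 CPM in the other cells. Their Piwil1 was 348 CPM in KO and 53.8 CPM in WT. They held more Dazl, an RNA-binding protein of early germ cells (435 CPM in KO and 699 CPM in WT, against 44.3 and 99.99 CPM in the other cells). Ncl, the nucleolar protein nucleolin, had 522 CPM in KO and 1559 CPM in WT, against 36.2 and 76.8 CPM in the others.

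The second kind was 3 WT barcodes with more than 1500 CPM of Sycp1, and 0 in KO. Together they held 2235 CPM of Sycp1, 2028 CPM of Sycp3 and 1791 CPM of Tex101, a surface protein of germ cells. Their Ldhc was 1791 CPM, and their X-linked share lay between 0.221% and 0.300%. They held 858 CPM of Atp6v0b, a subunit of the proton pump of lysosomes, and 1288 CPM of the endoplasmic reticulum chaperone Hspa5. The 51 WT cells with at least 4000 CPM of Ldhc held 45.4 and 234 CPM of these. Leaving out every barcode under 4000 CPM of Ldhc removes both kinds, 6 barcodes in WT and 2 in KO, together with 1 KO barcode of neither kind. That KO barcode had 25376 UMIs, an X-linked share of 0.166%, 2246 CPM of Piwil1, 828 CPM of Sycp1 and 5044 CPM of Malat1. The limit was set after the values were seen, and named genes that lose their call without these barcodes are given both ways.

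**Figure D2:**
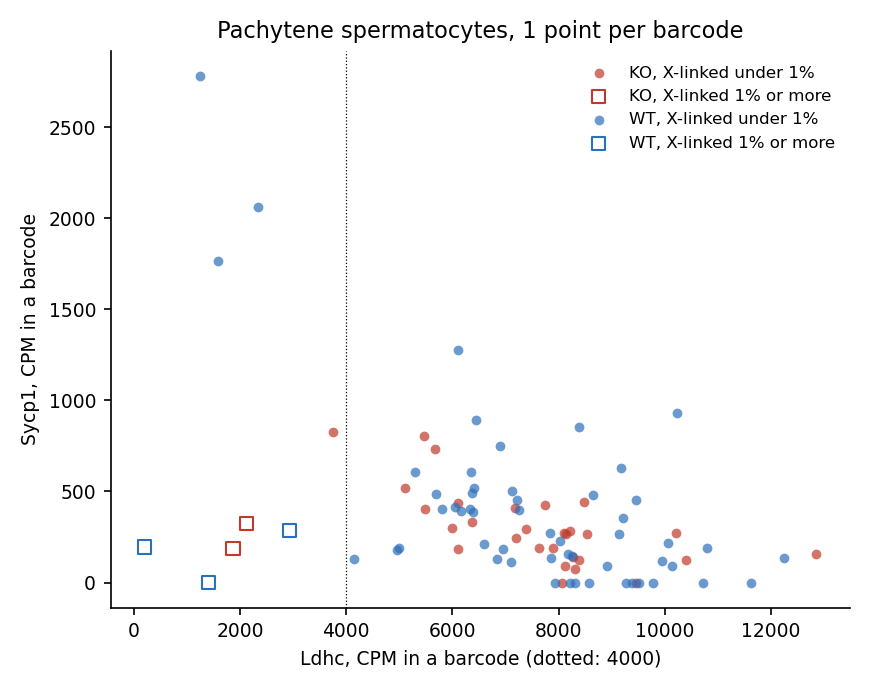
Sycp1 against Ldhc in each pachytene spermatocyte, in CPM of the barcode; KO barcodes are red, WT barcodes are blue, and open squares hold 1% or more X-linked UMIs. The 3 WT points above 1500 CPM of Sycp1 and the open squares lie left of the dotted line at 4000 CPM of Ldhc.

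Few UMIs came from the X chromosome. X-linked genes gave 0.227% of UMIs (exact binomial 95% interval 0.214 to 0.241) in KO cells and 0.179% (0.171 to 0.187) in WT cells. These intervals cover the counting of UMIs only, not differences between barcodes, mice or libraries, so they do not compare the genotypes. After free RNA was taken off up to the share that protamine transcripts allow, the shares were 0.0825% in KO and 0.0738% in WT. Per barcode the share ranged between 0.117% and 1.74% in KO, with a median of 0.190%, and between 0.0474% and 1.68% in WT, with a median of 0.157%. Early spermatocytes, whose stage precedes the silencing but whose group may hold other cells, held 1.72% in KO and 1.85% in WT. Their lowest barcodes held 1.41% in KO and 1.34% in WT, and the 5 pachytene barcodes at 1.07% to 1.74% overlap that range. Near-division spermatocytes were close to the pachytene cells, at 0.181% in KO and 0.153% in WT, and round spermatids held 0.934% and 0.777%. Free RNA held 1.13% in KO and 1.01% in WT, and the largest share of free RNA that the protamine transcripts allow in these cells is 19.5% in KO and 16.0% in WT. Without the barcodes at 1% or more the X-linked share was 0.195% in KO and 0.137% in WT. Y-linked genes gave 20 UMIs (0.00394%) in KO and 35 UMIs (0.00313%) in WT.

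**Figure D3:**
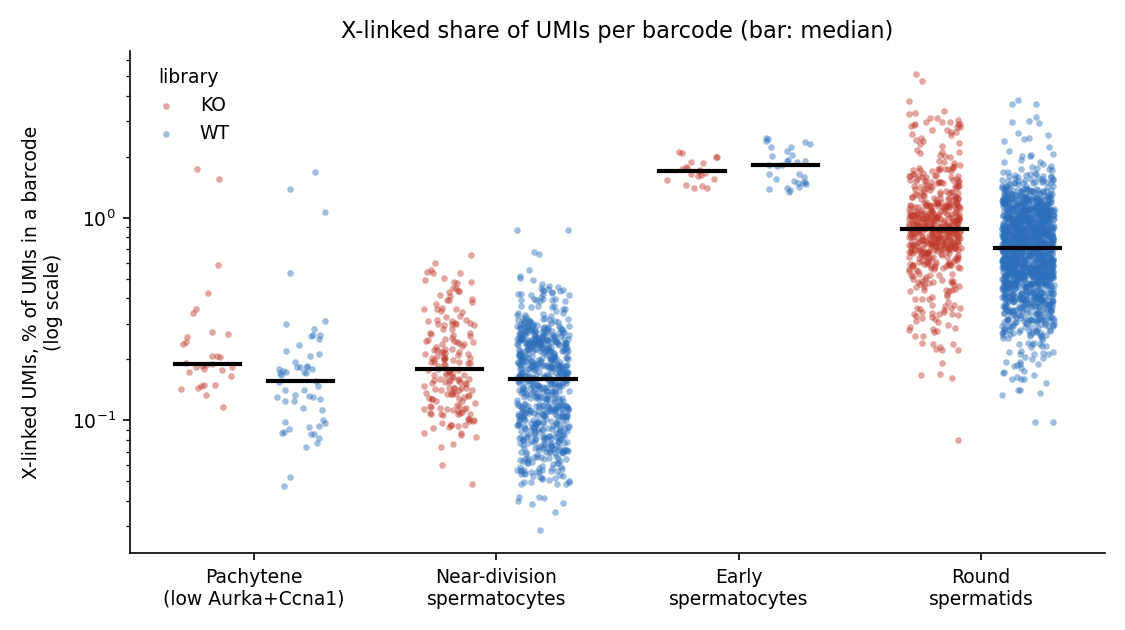
X-linked share of UMIs in each barcode, on a log scale, by germ cell group, KO red and left of WT blue, with black bars at the medians. Pachytene and near-division spermatocytes have medians under 0.2%, early spermatocytes start at 1.34%, and 5 pachytene barcodes lie above 1%.

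Against early spermatocytes, 15 of 16 measured X-linked genes were lower in the pachytene cells of both libraries and 0 were higher, with median log2 ratios of −3.78 in KO and −4.51 in WT. Of all 2702 measured genes 17.8% were lower and 34.6% were higher. Among 2674 autosomal genes 17.1% were lower, and their median was 0.39 in KO and 0.35 in WT. Early spermatocytes held fewer UMIs in total than the pachytene cells in both libraries. An X-linked gene with few UMIs in the pachytene cells therefore reached the UMI minimum only if its level was higher in early spermatocytes. The X-linked count and medians are in part set by that minimum and do not describe all X-linked genes. The X-linked shares of UMIs use no minimum. Against round spermatids 134 of 270 X-linked genes were lower and 1 higher, while 23.0% of 9651 autosomal genes and 23.7% of all measured genes were lower and 24.6% of all were higher. The X-linked genes with the most UMIs left were Tsga8 (151 CPM in KO, 103 CPM in WT), a chromatin protein of spermatids, and Akap4 (112 CPM in KO, 77.0 CPM in WT), a scaffold of the sperm tail. Both were far higher in free RNA, at 824 and 854 CPM for Tsga8 and 621 and 629 CPM for Akap4 (KO and WT). The next, Ndufa1, went the other way, with 72.8 CPM in KO cells and 71.6 CPM in WT cells, and 31.5 and 12.9 CPM in free RNA. It was the 1 gene higher than in round spermatids (log2 1.40 in KO and 2.18 in WT). It was also higher than near division (1.69 and 2.08) and lower than in early spermatocytes (−1.43 and −2.07).

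Autosomal copies of X-linked genes, which serve germ cells while the X is silent, were present. Pgk2 stood at 155 CPM in KO and 135 CPM in WT, while its X-linked parent Pgk1, a glycolytic enzyme, had 0 CPM in KO and 6.27 CPM in WT. The ribosomal protein copy Rpl39l had 1493 CPM in KO and 1483 CPM in WT, against 35.4 and 13.4 CPM of Rpl39. Rbmxl2, a copy of an RNA-binding protein gene, had 226 CPM in KO and 227 CPM in WT, and its parent Rbmx had 0 CPM in both. Of 10 measured copies, 7 were higher than in early spermatocytes and 1 was lower, where 34.6% and 17.8% of all measured genes were. The lower one was Ubl4b, at 72.8 CPM in KO and 92.2 CPM in WT, against 216 and 146 CPM. Pgk2 was not called, with 156 and 157 CPM in early spermatocytes. The 13 listed copies together had 4415 CPM in KO cells and 4438 CPM in WT cells, with 4389 and 4749 CPM in free RNA. Against near-division spermatocytes, where 13.8% of all measured genes were higher and 12.2% lower, 1 of 13 copies was higher (Rbmxl2) and 4 were lower, among them Pgk2. UMIs of such near-identical pairs may be assigned to the wrong member by the counting.

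Against near-division spermatocytes, 1009 of 7290 measured genes (13.8%) were higher in the pachytene cells of both libraries and 889 (12.2%) were lower. The 2 groups were parted by Aurka and Ccna1, so genes that follow those 2 through prophase differ by construction, and the values are a description. The synaptonemal complex and cohesin list had 8 of 13 measured genes higher and 0 lower, with a median log2 ratio of 0.81 in KO and 1.07 in WT. Its filament protein Sycp1 had 348 CPM in KO and 448 CPM in WT, against 90.4 and 87.6 CPM near division, and Sycp3, of the chromosome axes, 571 and 633 CPM against 249 and 267 CPM. Tex12, of the central element, had 57.1 CPM in KO and 77.0 CPM in WT, against 12.4 and 13.96 CPM. The piRNA pathway had 10 of 19 genes higher and 0 lower. Piwil2 had 106 CPM in KO and 137 CPM in WT, against 36.7 and 36.1 CPM. Tdrd1 had 252 CPM in KO and 202 CPM in WT, against 69.5 and 70.8 CPM.

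In the sex body and DNA damage signalling list 6 of 10 genes were higher than near division and 0 were lower. They include the kinase gene Atr (193 CPM in KO and 213 CPM in WT, against 119 and 117 CPM) and Mdc1, which spreads the damage mark over the sex chromosomes (94.4 and 81.4 CPM against 32.9 and 36.4 CPM). Crossover genes were higher in 3 of 8 and lower in 1, with Mlh3, of the crossover resolving complex, at 66.9 CPM in KO and 71.6 CPM in WT, against 39.7 and 38.4 CPM. The list of genes for exit from prophase went both ways, 5 of 24 higher and 6 lower. Cyclin B1 (Ccnb1) had 23.6 CPM in KO and 27.7 CPM in WT, against 130 and 137 CPM, and the kinase gene Plk1 27.5 and 13.4 CPM against 99.8 and 115 CPM. Cks2 was higher, at 695 CPM in KO and 841 CPM in WT, against 289 and 276 CPM.

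The 6 genes with the highest ratio over near-division spermatocytes were Tmco1, a calcium channel of the endoplasmic reticulum, Chd3os, Gml, Tex12, Tex101 and Gml2. Tex101 had 649 CPM in KO and 676 CPM in WT, against 142 and 113 CPM. Per barcode it ranged between 0 and 1305 CPM in KO, with a median of 573, and between 0 and 2400 CPM in WT, with a median of 347. Chd3os lies antisense to Chd3, and reads of the 2 strands cannot be told apart without a stated strand rule. The 6 with the lowest ratio were Dnaic2, an intermediate chain of the dynein of cilia and tails, Peli2, Rhcg, Slc25a2, Rnf125 and Asb4. Dnaic2 had 7.87 CPM in KO and 9.85 CPM in WT, against 73.8 and 75.1 CPM, and Peli2, a ubiquitin ligase, 17.7 and 20.6 CPM against 134 and 157 CPM.

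Levels were followed over the raw Aurka and Ccna1 count, taken before thinning, so the steps differ in depth too. Median UMIs in WT were 7035 at a count of 0, 25404 at 3, 35620 at 4 to 7 and 21203 at 8 or more. In KO they were 19163, 11236, 14580 and 21084 at the same steps. After every barcode was thinned to 5000 UMIs, Sycp1 stood at 467, 378, 150 and 236 CPM in KO cells with 0, 1, 2 and 3 UMIs of Aurka and Ccna1, and at 156 and 44.9 CPM with 4 to 7 and 8 or more. In WT the same steps held 400, 400, 356, 436, 294 and 61.2 CPM. Sycp1 was lowest at 8 or more UMIs in both libraries, and in WT the limit of 3 lay before its largest step, while in KO the steps were uneven. Ldhc showed no such step, with 7600 CPM in KO and 6127 CPM in WT at 3 UMIs, and 7791 and 7343 CPM at 8 or more. The KO cells with 0 UMIs are only 3 barcodes and the WT ones 5, and their values rest on few counts.

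**Figure D4:**
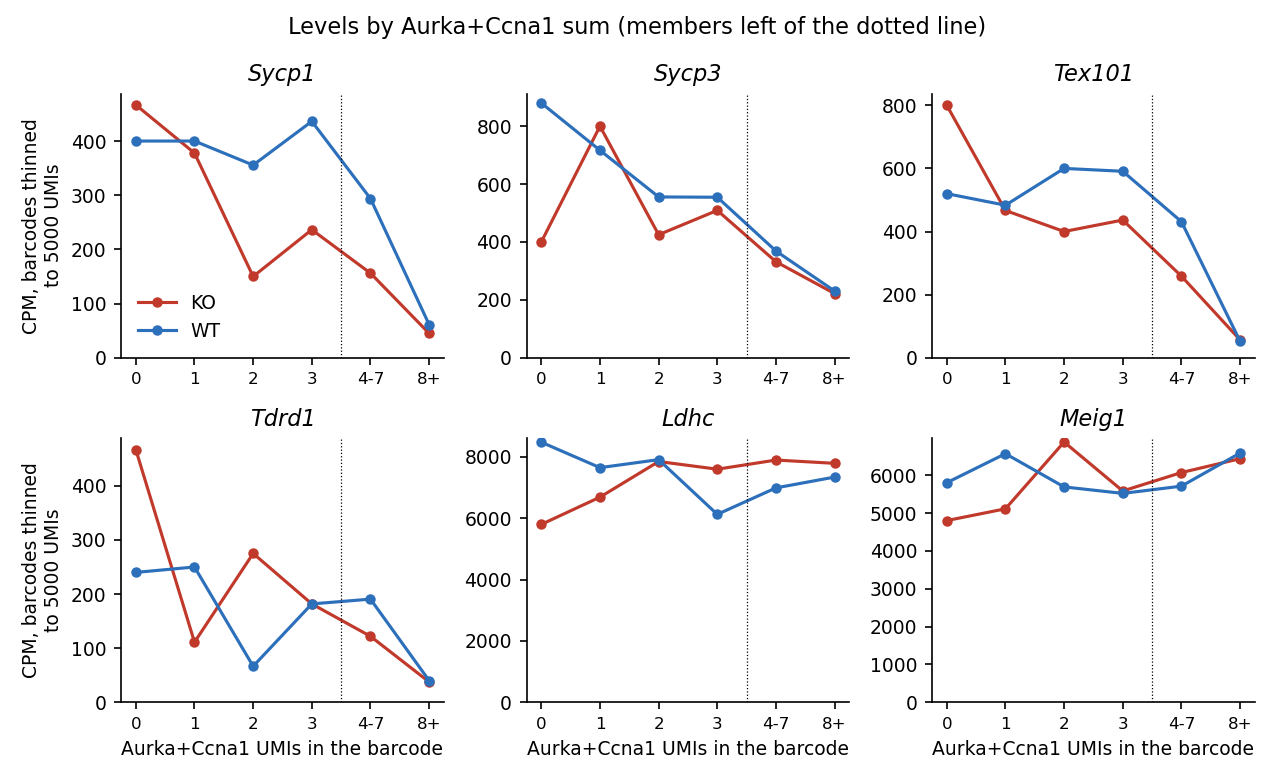
CPM of 6 genes by the number of Aurka and Ccna1 UMIs in the barcode, KO red and WT blue, with the pachytene cells left of the dotted line. The Aurka and Ccna1 number is the raw count, and only the CPM were taken after thinning to 5000 UMIs. Sycp1, Sycp3, Tex101 and Tdrd1 are lowest at 8 or more UMIs in both libraries, while Ldhc and Meig1 are not.

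Against early spermatocytes, 936 of 2702 measured genes (34.6%) were higher and 482 (17.8%) were lower in both libraries. Genes used in later steps were among the higher ones. In the flagellum list 13 of 19 genes were higher and 3 lower. Meig1, needed to build the sperm tail, had 5444 CPM in KO and 5438 CPM in WT, against 1329 and 1028 CPM, and Rsph1, of the radial spoke head, 2916 and 2847 CPM against 237 and 168 CPM. In germ cell energy metabolism 10 of 16 were higher and 2 lower, with the cytochrome oxidase subunit Cox6b2 at 2296 CPM in KO and 2174 CPM in WT, against 231 and 229 CPM. Of the acrosome list 6 of 8 were higher and 0 lower. The synaptonemal list was mixed, with 3 of 12 higher and 4 lower, and Sycp1 was not called (348 CPM in KO and 448 CPM in WT, against 317 and 444 CPM).

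Among genes with UMIs in the early spermatocytes of both libraries, the 6 with the highest ratio were Elfn2, Prok2, Gstt2, Lef1, Cdc42ep3 and Hist1h1t. BC049730 was not ranked there because early KO cells held 0 UMIs of it: it had 419 CPM in KO and 393 CPM in WT, against 0 and 8.27 CPM. Cdc42ep3, an effector of the small GTPase CDC42, had 708 CPM in KO and 817 CPM in WT, against 50.3 and 41.4 CPM. The 6 with the lowest were Stra8, which was part of the sum that chose the early spermatocytes, Hist1h2ap, a replication histone, the protease gene Prss50, the X-linked Map7d2 and Huwe1, and Tex15. Tex15, needed for repair of meiotic breaks, had 5.90 CPM in KO and 20.6 CPM in WT, against 664 and 753 CPM. Huwe1, a ubiquitin ligase, had 5.90 CPM in KO and 8.95 CPM in WT, against 277 and 306 CPM.

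Against round spermatids, 2454 of 9965 genes (24.6%) were higher and 2362 (23.7%) were lower in both libraries. The acrosome list had 0 of 15 genes higher and 11 lower, such as Spam1, the sperm hyaluronidase, at 9.84 CPM in KO and 4.48 CPM in WT, against 108 and 118 CPM. The piRNA list had 12 of 19 higher and 1 lower, and the heat shock and chaperonin list 12 of 25 higher and 2 lower. Hsp90aa1 had 5922 CPM in KO and 5606 CPM in WT, against 2328 and 2407 CPM. The highest ratios belonged to Elfn2, Pou2f2, Chst1, BC049730, Tdrd5 and Mgll, and the lowest to Slfn3, Efcab12, Ubald2, BC050972, Fthl17a and Pde4a.

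By the ranking rule, 12 genes were furthest above all 3 neighbouring groups at once: Gml, Hist1h1t, Elfn2, Tdrd1, Gstt2, Stambp, Tdrd5, BC049730, Cks2, Ufl1, Mgll and Fam241a. Hist1h1t, the linker histone of spermatocytes, had 134 CPM in KO and 175 CPM in WT, against at most 39.7 CPM in the other KO groups and 40.5 CPM in the other WT groups. Elfn2 had 393 CPM in KO and 330 CPM in WT, against at most 135 and 113 CPM. Per barcode Elfn2 ranged between 0 and 957 CPM in KO, with a median of 185, and between 0 and 947 CPM in WT, with a median of 134. Mgll, which splits monoacylglycerols, had 303 CPM in KO and 251 CPM in WT, against at most 129 and 114 CPM. Tdrd5, a Tudor domain protein of the piRNA pathway, had 88.5 CPM in KO and 118 CPM in WT, against at most 35.4 and 35.6 CPM. Without the barcodes under 4000 CPM of Ldhc all 12 stayed higher than near-division spermatocytes and round spermatids, and 10 stayed higher than early spermatocytes, all but Stambp and Tdrd5.

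Between the libraries few genes were called. Of 4620 measured genes, 119 (2.58%) were higher and 135 (2.92%) were lower in KO than in WT, and the median log2 ratio over all 4620 was −0.02. In simulated counts with counting error only, 2.355% of unchanged genes were called, both directions together, so a single call can be wrong. With median-of-ratios scaling the split was 92 higher and 169 lower. The abundant genes of the stage stood close. Ldhc had 6996 CPM in KO and 6781 CPM in WT (log2 0.05, −0.01 to 0.10), Meig1 5444 and 5438 CPM (0.00, −0.06 to 0.07) and Hspa2 1574 and 1595 CPM (−0.02, −0.14 to 0.10). These intervals leave out a change of 1.5-fold.

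**Figure D5:**
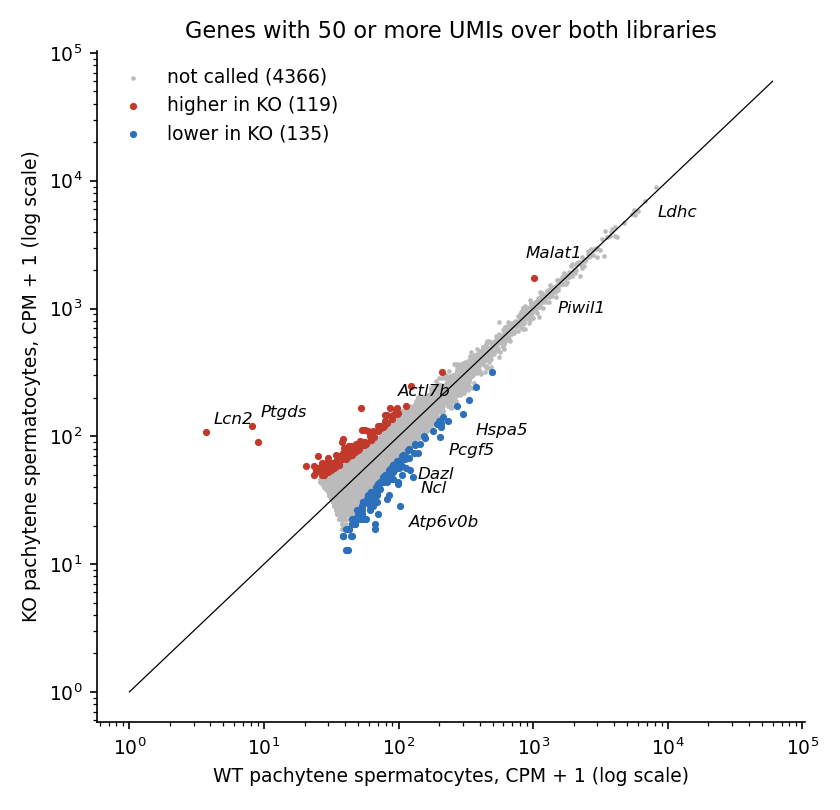
KO against WT level of 4620 genes in pachytene spermatocytes, as CPM + 1 on log scales, with the line of equal levels. The 119 genes called higher in KO are red and the 135 called lower are blue; Lcn2 and Ptgds lie furthest above the line.

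Genes were ranked by the interval bound nearest to 0, and the highest was Lcn2, a secreted lipocalin, at 106 CPM (54 UMIs) in KO and 2.69 CPM (3 UMIs) in WT, a log2 ratio of 5.31 (3.68 to 7.63). Ptgds, the prostaglandin D synthase and a Leydig cell marker, had 120 CPM in KO and 7.16 CPM in WT (4.07, 2.998 to 5.34). Both were also in free RNA, Lcn2 at 381 CPM in KO and 25.8 CPM in WT, and Ptgds at 488 and 31.6 CPM. The same difference stood near division, with 79.6 CPM of Lcn2 in KO and 2.25 CPM in WT, and 111 and 8.20 CPM of Ptgds. The 11 Leydig markers together had 327 CPM in KO cells and 28.6 CPM in WT cells, with 1272 and 156 CPM in free RNA, and Lhcgr was at 0 in both. These 11 include Ptgds itself and the 3 Leydig genes that the rule limited, Insl3, Cyp17a1 and Cyp11a1. The 9 macrophage markers had 74.8 CPM in KO and 13.4 CPM in WT, with C1qc, Adgre1 and Mrc1 at 0 in both, and the 11 Sertoli markers 86.6 and 45.6 CPM, with Sox9, Rhox5 and Cldn11 at 0 in both. The part of free RNA and of other cells in these differences was not tested beyond the subtraction given next.

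The other genes of the 12 highest were Defb19, Fam24a, Tmsb4x, Malat1, Mfsd12, Actl7b, Mbd3l1, Rtn1, Spert and Spata20. Tmsb4x, an actin-binding peptide, had 57.1 CPM in KO and 19.7 CPM in WT (log2 1.53), and without the barcodes under 4000 CPM of Ldhc 59.4 and 16.8 CPM (1.82, 0.90 to 2.78) on 28 and 17 UMIs, fewer than the 50 needed for a call. Malat1, a long noncoding RNA kept in the nucleus, had 1722 CPM in KO and 1008 CPM in WT (log2 0.77, 0.64 to 0.90). Per barcode it ranged between 136 and 5044 CPM in KO, with a median of 1306, and between 0 and 4229 CPM in WT, with a median of 384. Free RNA held 2207 CPM of it in KO and 748 CPM in WT. Malat1 was also higher in KO near division (821 and 340 CPM), in early spermatocytes (3860 and 2046 CPM) and in round spermatids (1423 and 717 CPM). Actl7b, an actin-like protein of spermatids, had 165 CPM in KO and 85.0 CPM in WT (0.96, 0.52 to 1.40), with 475 and 394 CPM in free RNA. Rtn1, a reticulon of the endoplasmic reticulum, had 61.0 CPM in KO and 26.0 CPM in WT, with 24.3 and 20.5 CPM in free RNA. Near division Actl7b had 159 CPM in KO and 134 CPM in WT, and Rtn1 43.7 and 46.6 CPM. When free RNA was taken off up to the share that protamine transcripts allow, 3 of these 12 genes were still called (Malat1, Actl7b and Rtn1), 4 were not, and 5 had no ratio left. The subtraction removes UMIs, so a gene can lose its call by falling under 50 UMIs with its ratio kept. A gene with 0 UMIs left in either library has no ratio. A lost call therefore does not show that the difference was gone.

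Of the 12 genes ranked lowest, 11 were still called after the same subtraction. Faf2, which brings the segregase p97 to the endoplasmic reticulum, had 17.7 CPM in KO and 66.2 CPM in WT (log2 −1.90, −3.09 to −0.90), against 75.7 and 87.8 CPM near division. Ckap4, a membrane protein of the endoplasmic reticulum, had 23.6 CPM in KO and 68.9 CPM in WT (−1.55, −2.56 to −0.66), against 216 and 217 CPM near division. Hspa5 had 148 CPM in KO and 298 CPM in WT (−1.01, −1.40 to −0.65), and near division 299 and 315 CPM. Per barcode Hspa5 reached 355 CPM at most in KO and 3091 CPM in WT, with medians of 155 and 236. Pcgf5, a Polycomb ring finger protein, had 98.4 CPM in KO and 201 CPM in WT (−1.03, −1.51 to −0.59), against 31.6 and 38.1 CPM near division.

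Sgo2a, the shugoshin that protects cohesin at centromeres, had 31.5 CPM in KO and 80.6 CPM in WT (log2 −1.36, −2.22 to −0.58). Catsperb, an ion channel subunit of sperm, was the 1 of the 12 not called after the subtraction. Rcn2, Catsperb, Abcc3 and Exosc3 were called with and without the barcodes under 4000 CPM of Ldhc. Ncl had 47.2 CPM in KO and 126 CPM in WT (−1.42, −2.11 to −0.79), and without those barcodes 29.7 and 55.3 CPM (−0.90, −1.86 to −0.03). Atp6v0b and Dazl lost their call without them. Atp6v0b had 27.5 CPM in KO and 102 CPM in WT, and without those barcodes 27.6 and 45.4 CPM (log2 −0.72, −1.73 to 0.19). Dazl had 53.1 CPM in KO and 120 CPM in WT, and without them 42.4 and 48.4 CPM (−0.19, −1.02 to 0.59). Over all genes 114 were higher and 104 lower without them, of which 94 and 79 were called with all cells too.

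The gene lists are read against the 2.58% of all measured genes that were higher and the 2.92% that were lower in KO. In break formation and strand exchange 3 of 6 measured genes fell and 0 rose, with a median log2 ratio of −0.45. These were Spo11, which cuts the DNA to start recombination (35.4 CPM in KO, 65.3 CPM in WT, log2 −0.88, −1.72 to −0.12), Ankrd31, which guides where cuts are made (66.9 and 119 CPM, −0.83, −1.42 to −0.28), and Rpa1, which coats single-stranded DNA (17.7 and 42.1 CPM, −1.25, −2.46 to −0.20). They stayed called without the barcodes under 4000 CPM of Ldhc. The list's median rests on 6 genes and moved with the rule: it was −0.06 at 10000 UMIs per barcode, 0.05 at a protamine limit of 1%, −0.02 at a pachytene sum of 8, −0.06 after free RNA subtraction, −0.42 without the low Ldhc barcodes and −0.80 with 20 UMIs per gene. Psmc3ip, a partner of the strand exchange protein DMC1, stood at 600 CPM in KO and 595 CPM in WT. Of 26 genes in the list, 6 had the 50 UMIs needed.

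In the synaptonemal complex list 1 of 12 genes fell and 0 rose (median log2 −0.22). The median was 0.01 at a limit of 1 UMI of Aurka and Ccna1, −0.02 with the rule on thinned counts and 0.04 at a protamine limit of 1%. The gene that fell was Hormad1, of the chromosome axes, at 171 CPM in KO and 271 CPM in WT (−0.66, −1.02 to −0.32). Without the barcodes under 4000 CPM of Ldhc Hormad1 had 170 and 232 CPM and was not called (−0.45). Of the piRNA pathway 1 of 17 genes fell, the helicase gene Mov10l1 (72.8 CPM in KO, 139 CPM in WT, −0.93, −1.49 to −0.41), and 0 rose (median −0.06). Without those barcodes it had 57.3 and 91.8 CPM (−0.68, −1.36 to −0.05). Of the genes for pachytene control 1 of 12 fell, Zfp541 (45.3 CPM in KO, 90.4 CPM in WT, −0.998, −1.72 to −0.33), a zinc finger protein of spermatocytes (median −0.05).

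Among mRNA-binding and m6A genes 3 of 20 fell and 0 rose (median log2 −0.13). They were Dazl, the m6A reader Ythdf2 (39.3 CPM in KO, 68.9 CPM in WT, −0.81, −1.60 to −0.08) and Celf1 (29.5 and 56.4 CPM, −0.93, −1.85 to −0.10). Without the barcodes under 4000 CPM of Ldhc Ythdf2 stayed called, and Celf1 had a log2 ratio of −0.84 (−1.89 to 0.10), which was not called. The germ cell mRNA-binding protein genes Ybx2 (1568 CPM in KO, 1757 CPM in WT) and Ybx1 (2878 and 3140 CPM) were not called. In the heat shock and chaperonin list 2 of 21 fell, Hspa5 and Hspe1 (median −0.06), and Hspe1 lost its call without those barcodes (27.6 CPM in KO, 29.6 CPM in WT). For exit from prophase 1 of 16 fell, Incenp (median −0.01), and for meiotic and testis histones 1 of 9, H2afv (median −0.08). Without those barcodes Incenp had the same log2 ratio, −1.48 (−3.02 to −0.22), on fewer than 50 UMIs, and H2afv had −0.24 (−0.96 to 0.43). Of 2 measured junction genes Epcam fell (33.4 CPM in KO, 68.0 CPM in WT, −1.02, −1.88 to −0.25).

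In the acrosome list 1 of 9 genes rose, Tmem190 (61.0 CPM in KO, 34.0 CPM in WT, log2 0.84, 0.11 to 1.57), and in the flagellum list 1 of 23, Odf1 (108 and 63.5 CPM, 0.77, 0.23 to 1.30), with medians of 0.02 and 0.06. Both are spermatid genes. Of 7 elongating spermatid markers 2 were called higher in KO, Odf1 itself and Oaz3, and of 5 round spermatid markers 1 was. The 10 elongating markers, which include Tnp2 that the rule limited, together held 3295 CPM in KO and 3120 CPM in WT. Free RNA held 18650 and 21171 CPM of them. No gene was called in either direction among 6 for crossovers (median −0.00), 8 of the sex body (0.02), 11 autosomal copies of X-linked genes (0.01), 18 of energy metabolism (0.08), 3 of apoptosis (−0.09) and 1 of antigen presentation (0.10). The immediate early list and the X-linked parent list had 0 measured genes.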

How the data were processed

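As deposited, each library is a matrix of unnormalized UMI counts for every gene in every barcode. Per the submitters' processing notes they were made with Cell Ranger 2.2.0 and STAR on mm10, while per the file headers the matrix software is version 3.1.0. The members, gene lists and limits were chosen with earlier results of these data known. Barcodes passed the rule given above, no doublet caller was run, and no other filter was applied. UMI counts were summed per library and group (python 3.11.15, scipy 1.17.1) and divided by all UMIs of the group. The library totals were 98033324 UMIs in KO and 121257944 UMIs in WT. Ratios carry exact conditional binomial 95% intervals and shares Clopper-Pearson intervals. Ranked KO against WT genes had at least 50 UMIs, at least 10 CPM in the higher library and at most 25% of its UMIs in 1 barcode; ribosomal protein, mitochondrial and haemoglobin genes and models known by a number alone were left out. Genes ranked against neighbouring groups had at least 50 CPM. Chromosomes came from GENCODE M21, which held 30934 of 31053 gene IDs. The calling script was tested on simulated data. Alternatives covered the limits of the rule, scaling (TMM from edgeR 4.0.16 and median-of-ratios), free RNA, thinning and UMI minimum.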

Additional observations from a re-analysis of the deposited data

Results flagged for a closer look

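Against round spermatids, 17 of 9965 measured genes were called in opposite directions in the 2 libraries, and the difference between the libraries was not tested. The 5 of them that belong to the ranked genes or the lists are described, all lower in the pachytene cells of KO and higher in those of WT. The round group also differed between the libraries for these 5 genes, so the ratios do not describe the pachytene cells alone. It held 79.8 CPM of Ncl in KO and 33.4 CPM in WT, and 20.3 and 7.96 CPM of Hspd1. Bax had 13.9 and 4.76 CPM there, Ctsl 36.8 and 12.4 CPM, and Hist1h1a 15.0 and 4.01 CPM. Of the others, Stk4 was level in it (14.6 and 14.7 CPM) and Aaed1 lower in KO (32.0 and 41.7 CPM). Without the barcodes under 4000 CPM of Ldhc, a limit chosen after seeing the data, 3 of the 17 were still called in opposite directions (Ncl, Stk4 and Aaed1, the last of them higher in KO and lower in WT). Bax, which promotes cell death, had a log2 ratio of −2.82 in KO and 2.29 in WT, with 1 and 26 UMIs; without those barcodes it had 0 UMIs in KO and a log2 ratio of 1.05 (−0.03 to 1.96) in WT. Ctsl, a lysosomal protease, had −1.42 in KO and 0.965 in WT, and without them −1.53 and −0.33. Hspd1, the mitochondrial chaperonin, had −1.78 in KO and 0.935 in WT on 3 and 17 UMIs, and without them −2.26 and −2.01. Hist1h1a, a linker histone, had 0.0 CPM in KO, where no ratio exists, and a log2 ratio of 1.42 in WT from 12 UMIs in 3 barcodes, 1 UMI of which was left without them. Ncl had −0.76 in KO and 1.92 in WT, and without them −1.43 and 0.73, so it was the 1 of these 5 still called in opposite directions. Early spermatocytes held far more Ncl, at 1459 CPM in KO and 1412 CPM in WT.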

How the results depend on the processing

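No paired analysis was possible because each genotype has 1 library. Of the summary values, 135 stayed within the limits set for them and 77 moved, and of the values of named genes 262 kept their call, 131 lost it and 1 reversed: Actl7b, 0.96 on the log2 scale, was −0.14 (−1.29 to 1.06) with equal weights for cells with 0 and with 1 to 3 UMIs of Aurka and Ccna1. That setting gave 12 higher and 21 lower genes in KO and an X-linked share of 0.209% in KO, from few UMIs by construction. With a limit of 1 UMI of Aurka and Ccna1 there were 12 cells in KO and 17 in WT (5.71% and 2.30% of spermatocytes), X-linked shares of 0.249% and 0.123%, 37 higher and 64 lower genes in KO, 529 and 523 against near division, 459 and 258 against early, and 1532 and 1387 against round. With the rule on thinned counts there were 91 and 249 cells (51.1% and 39.0%), X-linked shares of 0.170% and 0.116%, 270 genes higher in KO, 357 lower than near division, and 1660 higher and 1360 lower than early. With cells thinned to 5000 UMIs there were 31 and 46 genes in KO, X-linked shares of 0.301% and 0.227%, 272 and 406 against near division, 397 and 131 against early, and 798 and 1110 against round. After free RNA subtraction 78 genes were higher in KO, and the X-linked shares were 0.0825% and 0.0738%. A minimum of 20 UMIs per gene gave 215 and 210 genes in KO and 1117 lower than early, and no minimum gave 297, 213 and 1824. At 10000 UMIs per barcode there were 18 and 35 cells (10.1% and 4.99%), with shares of 0.187% and 0.166%. A protamine limit of 1% left 19 and 20 cells (3.07% in WT), with 0.168% and 0.138%. A Leydig sum under 2 left 18 cells in KO, with 0.259%, and 495 genes higher than near division. A pachytene sum of 8 gave 5.48% of spermatocytes in WT and shares of 0.190% and 0.128%. The X-linked share was 0.158% and 0.124% without its 10 highest genes, and 0.187% in WT without the top 5% of cells by UMIs. Chosen after seeing the data, a limit of 200 CPM of Aurka and Ccna1 gave 94 cells in WT (12.7%), shares of 0.186% and 0.114%, 217 and 204 genes in KO and 847 lower than early. Also chosen after seeing the data, leaving out cells at 1% X-linked or more gave 0.195% and 0.137%, and leaving out those under 4000 CPM of Ldhc gave 0.196% and 0.128%. Values are in the order KO then WT for cells and shares, and higher then lower for genes. Of the list medians 241 stayed and 18 moved, over 9 lists. Beside the 2 lists given with their results, the piRNA median (−0.06) was −0.26 at the limit of 1 UMI, 0.12 at the protamine limit of 1% and −0.20 at a Leydig sum under 2. The flagellum median (0.06) was −0.41 at the limit of 1 UMI, −0.03 with thinned counts, −0.19 with equal weights and −0.06 under 200 CPM, and the acrosome median (0.02) was −0.31 at the limit of 1 UMI. Equal weights gave −0.27 for the acrosome, 0.33 for the sex body, 0.25 for the copies and −0.14 for energy metabolism; crossover genes had 0.28 at the protamine limit of 1%, and the sex body 0.24 in thinned cells. Where fewer UMIs remain fewer genes can be called; other causes were not tested.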

Other observations

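Of 9 measured meiotic and testis histone genes, 4 were higher than near division and 0 were lower, where 13.8% and 12.2% of all measured genes were. The list went both ways elsewhere, with 3 of 10 higher and 3 lower than early spermatocytes, and 4 of 12 higher and 3 lower than round spermatids. H3f3b, which encodes the replacement histone H3.3, had 2542 CPM in KO and 2954 CPM in WT, against 892 and 871 CPM near division. H2afy, which encodes macroH2A, had 329 CPM in KO and 348 CPM in WT, against 174 and 158 CPM. Among 12 pachytene control genes 1 was higher than near division, Meioc, a meiosis regulator, and 3 were lower. Tbpl1, a TBP-related factor needed in spermatids, was 1 of those 3, at 462 CPM in KO and 478 CPM in WT, against 923 and 989 CPM.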
